A study of Mus musculus with 8 samples.

Results

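Neutrophils are short-lived granulocytes made in the bone marrow and carried to the lung in blood, where many rest in its capillaries. The 10 genes described here, Cxcr2, Csf3r, Fpr1, Fpr2, Trem1, Il1r2, Retnlg, S100a8, S100a9 and Cd177, encode receptors and abundant proteins of mature neutrophils. They were chosen by name, with the difference between the 2 groups of libraries already known, and all 10 were found among 39290 gene names in the deposited table. All 10 were also among the 14418 genes tested.

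The table held 8 mouse lung libraries, 4 titled model and 4 titled high dose, from a study whose title names Platycodin D (PD), a saponin of Platycodon root, and mice with idiopathic pulmonary fibrosis, a scarring lung disease. Strain, age, the way the disease was modelled, the dose and whether a library came from 1 animal are not given in the sources used here, and no group without the disease model was analysed here. The p-values therefore set the group difference only against the spread of these libraries within groups, and that spread may be technical. Both lung tissue and a fibroblast line (MLF) stand in the labels of each library. Lung epithelial, endothelial and blood cell transcripts were all present, with Sftpc, a surfactant protein, at a mean of 10199 FPKM in model and 13299.9 FPKM in high dose. The libraries titled model carry codes that begin with QH and those titled high dose codes that begin with QM. Those initials would read the other way round, and if titles and codes had been exchanged, every direction given here would turn.

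Values are FPKM, fragments scaled by transcript length and library depth, so levels can be compared between genes. Read counts were not used here, and the relative depth read from low values was 1.00 to 1.17 in model and 1.10 to 1.34 in high dose, approximately. Apart from model replicate 1, the reference, each such ratio rested on 69 to 111 of 2906 low rows. The highest single row held 6.17% (model replicate 4) to 41.5% (high dose replicate 2) of a library's FPKM sum. Rows with no gene name held up to 65.2% of a library's FPKM sum, and model replicate 4 was set off from all others along the second principal component. Along the first (46.2% of the variance), model replicate 2 lay between the other model libraries and the high dose libraries. Differences are the high dose mean less the model mean of log2(FPKM + 1), with the SE of the fit of all tested genes, and they understate changes of low genes. In bulk tissue, fewer neutrophils and less RNA per neutrophil cannot be told apart.

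In a neutrophil, granulocyte colony-stimulating factor acts through Csf3r to drive production and survival. Chemokines acting on Cxcr2 release the cells from marrow and draw them into tissue, and the formyl peptide receptors Fpr1 and Fpr2 guide them to bacteria and damaged cells. S100a8 and S100a9 pair as calprotectin, a calcium- and zinc-binding complex that makes up much of the neutrophil cytosol.

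S100a8 and S100a9 are neighbours on mouse chromosome 3, and their promoter windows are shown because both genes varied together in these libraries. The window of Csf3r is shown as that of the receptor to which the other genes were compared, and that of Cd177 because its levels went the opposite way. Each line gives 250 bases before and 50 after the annotated start, from RefSeq on GRCm38.p6, an older build than the mm39 of the deposited table. Capitals mark the core of C/EBP sites (TTNCNNAA or its reverse complement TTNNGNAA) and of PU.1 sites (GAGGAA or its reverse complement TTCCTC), factors known for granulocyte genes. No marked stretch overlapped another in these windows.
S100a8 (chr3:90668821-90669120, + strand): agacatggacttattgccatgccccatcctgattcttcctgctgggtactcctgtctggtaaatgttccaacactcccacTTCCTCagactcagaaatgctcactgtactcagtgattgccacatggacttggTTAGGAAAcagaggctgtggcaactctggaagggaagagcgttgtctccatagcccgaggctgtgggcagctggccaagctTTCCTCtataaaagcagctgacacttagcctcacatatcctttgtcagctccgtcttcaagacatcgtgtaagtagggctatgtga
S100a9 (chr3:90695672-90695971, - strand): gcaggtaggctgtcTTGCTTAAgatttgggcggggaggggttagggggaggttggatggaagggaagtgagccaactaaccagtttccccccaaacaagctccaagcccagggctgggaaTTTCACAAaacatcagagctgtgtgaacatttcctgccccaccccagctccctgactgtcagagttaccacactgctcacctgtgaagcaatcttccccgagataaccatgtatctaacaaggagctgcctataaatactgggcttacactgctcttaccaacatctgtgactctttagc
Csf3r (chr4:126024409-126024708, + strand): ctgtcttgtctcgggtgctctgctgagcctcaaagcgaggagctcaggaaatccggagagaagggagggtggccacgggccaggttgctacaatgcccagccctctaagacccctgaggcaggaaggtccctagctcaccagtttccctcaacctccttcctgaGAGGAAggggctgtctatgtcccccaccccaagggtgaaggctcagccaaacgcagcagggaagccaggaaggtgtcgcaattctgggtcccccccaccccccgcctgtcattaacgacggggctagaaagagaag
Cd177 (chr7:24760262-24760561, - strand): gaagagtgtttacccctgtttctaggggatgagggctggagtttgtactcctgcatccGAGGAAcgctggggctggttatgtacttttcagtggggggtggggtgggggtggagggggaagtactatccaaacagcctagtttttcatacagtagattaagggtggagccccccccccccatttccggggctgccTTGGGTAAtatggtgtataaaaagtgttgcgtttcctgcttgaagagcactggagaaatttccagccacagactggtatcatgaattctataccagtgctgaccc

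The C/EBP core stood in 7 of the 10 promoter windows, against 32.3% of the 11127 windows of tested genes and 40.7% of all 27025 windows. The PU.1 core stood in 6 of 10, against 27.1% and 28.3%. The Csf3r window held a PU.1 core and no C/EBP core, the S100a9 window the reverse, and the S100a8 and Cd177 windows held both. The Cd177 window, of the gene that went the other way, thus carried both cores too. These are matches of letters in a window and are no measure of binding.

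Of the 10 genes, 9 were lower in high dose and Cd177 was higher. For each of these 10 genes the 4 and 4 libraries did not overlap. Among all genes tested, every high dose library lay below every model library in 6.46% and above in 11.3%. All 10 also passed an adjusted p under 0.05 in limma (Benjamini-Hochberg), 9 lower and 1 higher, where 4.27% of all genes tested were lower and 5.86% higher. The genes were selected with this contrast known, so these counts describe the selection and test nothing.

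**Figure D1:**
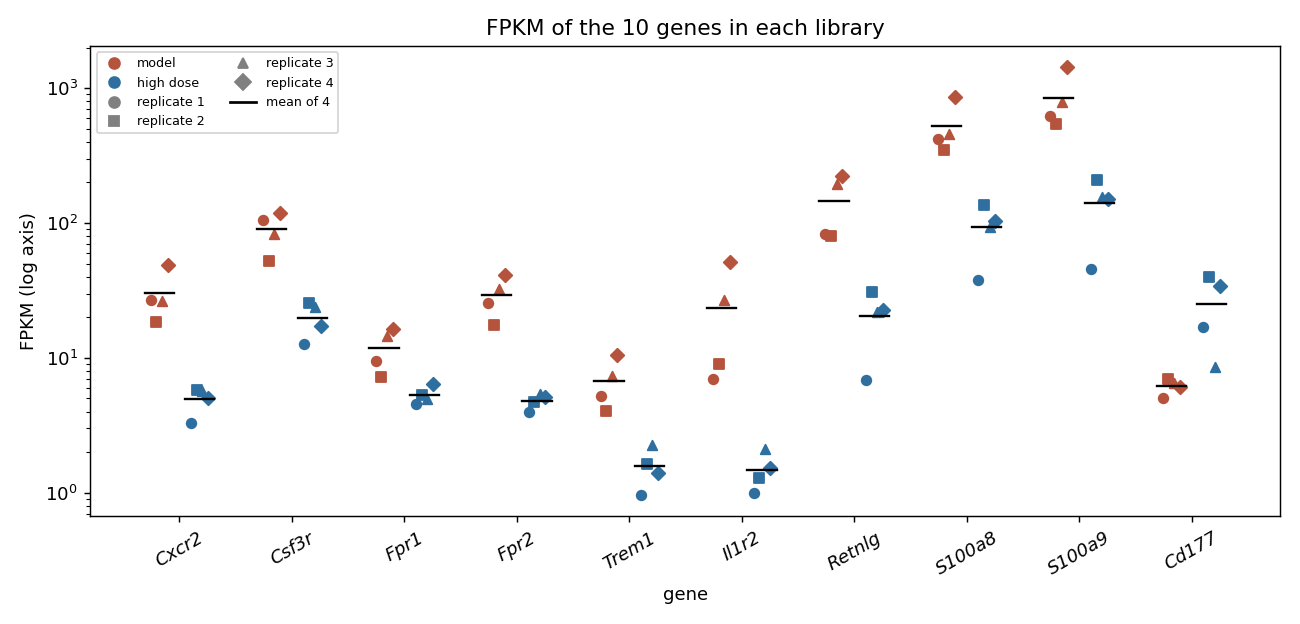
FPKM of the 10 genes in each of the 8 libraries on a log axis, with model libraries in red, high dose libraries in blue, a marker shape for each replicate number and a bar at the mean of 4. In 9 genes the model libraries sit above all high dose libraries, and in Cd177 they sit below, with high dose replicate 3 nearest to them at 8.53 FPKM.

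Csf3r, the receptor through which granulocyte colony-stimulating factor acts, had 105, 52.4, 83.5 and 119 FPKM in model replicates 1 to 4 and 12.6, 25.4, 24.0 and 17.3 in high dose replicates 1 to 4. The lowest model library held 2.06 times the highest high dose library. The means were 90.0 ± 29.1 and 19.8 ± 5.98 FPKM (SD, n = 4 each), 4.55 times higher in model, a log2 difference of -2.11 ± 0.29 (SE). Cxcr2, the receptor of neutrophil-attracting chemokines, had 27.1, 18.6, 26.5 and 49.1 FPKM in model and 3.28, 5.74, 5.71 and 5.05 in high dose. Its groups were further apart, with the lowest model library at 3.23 times the highest high dose library, and model replicate 4 stood well above the other model libraries. The means were 30.3 ± 13.1 and 4.95 ± 1.16 FPKM, 6.13 times higher in model (log2 difference -2.33 ± 0.27).

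The formyl peptide receptors differed from each other. Fpr1, the high-affinity receptor of bacterial formyl peptides, had 9.52, 7.19, 14.4 and 16.5 FPKM in model and 4.52, 5.26, 4.96 and 6.41 in high dose. Its groups were the closest of the 10 genes, with model replicate 2 at 1.12 times high dose replicate 4, and its means of 11.9 ± 4.28 and 5.29 ± 0.808 FPKM gave a log2 difference of -0.98 ± 0.23. Fpr2, which also binds annexin A1 and lipid mediators, had 25.3, 17.5, 32.2 and 41.3 FPKM in model and 3.98, 4.74, 5.40 and 5.13 in high dose. Its means were 29.1 ± 10.1 and 4.81 ± 0.619 FPKM, a log2 difference of -2.31 ± 0.23. Thus Fpr2 stood above Fpr1 in every model library, at 2.66, 2.43, 2.24 and 2.51 times its level, and near it in high dose, at 0.879, 0.902, 1.09 and 0.799 times. The ratio was 2.46 ± 0.176 in model and 0.917 ± 0.122 in high dose (SD, n = 4 each), and the groups did not overlap. Both genes are close paralogs and neighbours, so how reads were divided between them is uncertain.

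Trem1, an immunoglobulin-like receptor that amplifies inflammatory signals through the adaptor Tyrobp, had the lowest mean of these receptors in model and was second lowest, after Il1r2, in high dose. It had 5.22, 4.01, 7.38 and 10.5 FPKM in model and 0.963, 1.63, 2.27 and 1.41 in high dose, with means of 6.77 ± 2.83 and 1.57 ± 0.545. No library of either group reached the other group's range. The log2 difference was -1.55 ± 0.26, and -2.08 with a pseudocount of 0.01. Trem1 lay on 2 rows, as did Trem3 and its other neighbours of the family, and its level is the sum of both. The ratio of its 2 rows was 0.979 to 1.11 over the libraries. Whether reads were split or repeated between those rows is not given in the sources used here, so its level may be overstated. With the rows not summed, their log2 differences were -1.29 and -1.22.

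Il1r2, a decoy receptor that binds interleukin 1 without signalling, differed most between groups and also within the model group. It had 6.98, 9.07, 26.7 and 51.5 FPKM in model and 0.999, 1.28, 2.09 and 1.51 in high dose. Model replicates 3 and 4 held several times the level of model replicates 1 and 2, a spread of 7.38 times within the group. The means were 23.6 ± 20.6 and 1.47 ± 0.464 FPKM, 16.01 times higher in model and 9.68 times without model replicate 4. The log2 difference was -2.92 ± 0.55, and -2.42 without that library.

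Retnlg, a small secreted resistin-like protein of mouse granulocytes, had 83.5, 79.4, 196 and 225 FPKM in model and 6.83, 31.0, 21.8 and 22.7 in high dose. As with Il1r2, model replicates 3 and 4 were the high ones, and high dose replicate 1 was far below the other high dose libraries. The means were 146 ± 75.2 and 20.6 ± 10.05 FPKM (log2 difference -2.78 ± 0.51).

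The S100 pair was the most abundant of the 10. S100a8 had 417, 348, 454 and 862 FPKM in model and 38.0, 137, 93.7 and 103 in high dose, with means of 519.9 ± 232 and 92.9 ± 41.0 (log2 difference -2.52 ± 0.42). S100a9 had 626, 539, 794 and 1427 FPKM in model and 45.9, 208, 156 and 152 in high dose, with means of 847 ± 401 and 140.4 ± 67.9 (log2 difference -2.67 ± 0.49). In both genes model replicate 4 was highest and high dose replicate 1 lowest of all 8 libraries. The ratio of S100a9 to S100a8 was nearly steady by comparison, at 1.62 ± 0.111 in model and 1.47 ± 0.192 in high dose, and these ranges overlapped. Among the 14418 genes tested S100a9 stood at a mean percentile of 99.7 in model and 95.7 in high dose.

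Cd177, a glycoprotein of the Ly6 and uPAR family held in the neutrophil membrane by a lipid anchor, went the opposite way. It had 5.03, 6.94, 6.53 and 6.13 FPKM in model and 16.9, 39.8, 8.53 and 34.2 in high dose. The model libraries lay close together, at a coefficient of variation of 13.3%, and the high dose libraries were spread over 4.67 times. The means were 6.16 ± 0.820 and 24.9 ± 14.6 FPKM, 4.04 times higher in high dose (log2 difference 1.64 ± 0.42), yet high dose replicate 3 was only 1.23 times the highest model library. Relative to Csf3r in the same library, Cd177 was at 0.0479 to 0.133 in model and 0.356 to 1.98 in high dose.

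**Figure D2:**
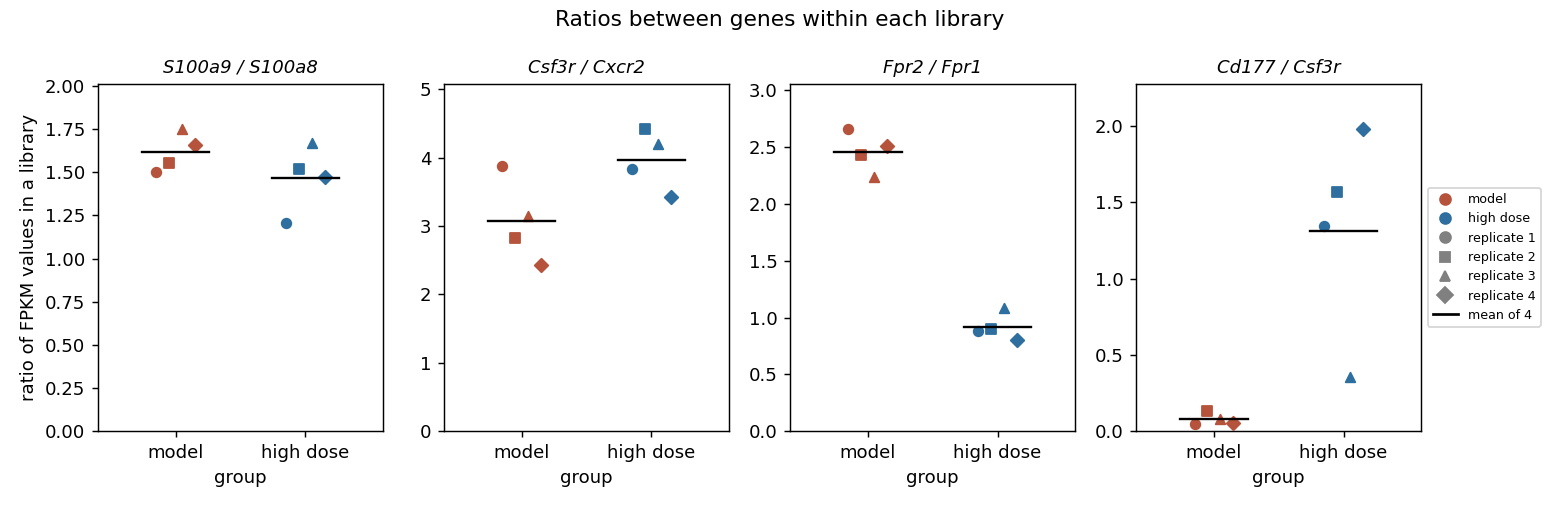
Ratio of the FPKM values of 2 genes within each library, for S100a9 over S100a8, Csf3r over Cxcr2, Fpr2 over Fpr1 and Cd177 over Csf3r, on linear axes from 0, with bars at the mean of 4. The groups overlap in the first pair of panels, and are apart for Fpr2 over Fpr1 (2.24 to 2.66 in model, 0.799 to 1.09 in high dose) and for Cd177 over Csf3r.

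In model the order of mean levels was S100a9, S100a8, Retnlg, Csf3r, Cxcr2, Fpr2, Il1r2, Fpr1, Trem1 and Cd177. The ranges of mean ± SD of neighbours in this order were apart only between S100a8 and Retnlg and between Csf3r and Cxcr2. In high dose the order was S100a9, S100a8, Cd177, Retnlg, Csf3r, Fpr1, Cxcr2, Fpr2, Trem1 and Il1r2. There the neighbours were apart between S100a8 and Cd177, between Csf3r and Fpr1, and between Fpr2 and Trem1. Cd177 thus stood last in model and next to the S100 pair in high dose, where its range overlapped that of Retnlg.

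Within groups the 9 lower genes also moved together. Model replicate 4 was the highest model library for each of the 9, and high dose replicate 1 the lowest high dose library for each of them. Model replicate 2 was below its group's mean in all 9, by 0.49 to 0.88 on the log2(FPKM + 1) scale. After the group means were removed, Pearson's r over the 8 libraries was above 0 in all 36 pairs of these genes, with a median of 0.79 and a range of 0.44 (Csf3r with Il1r2) to 0.99 (S100a8 with S100a9). The 9 pairs with Cd177 gave -0.20 to 0.33, with a median of 0.01. Model replicates 2 and 4 were also the ends of the model group along the first principal component of all tested genes (-4.02 and -49.2). The shared order is thus not shown to be particular to these 9 genes, and pairs of other genes were not compared. The r values are descriptions over libraries that also share depth and composition.

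**Figure D3:**
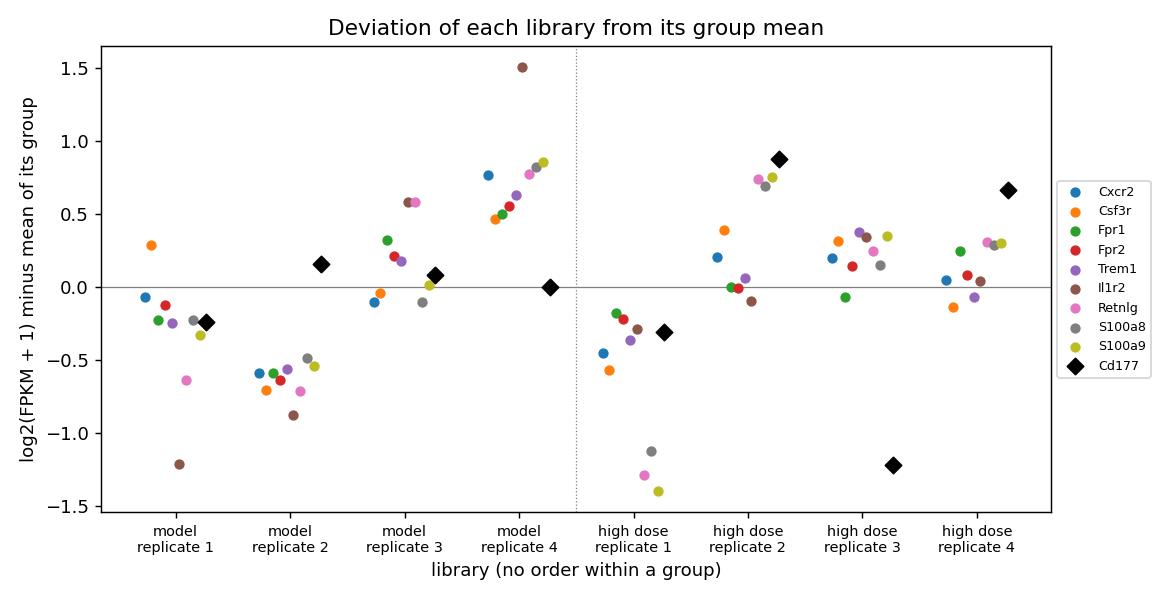
Deviation of log2(FPKM + 1) from the mean of its own group for each gene in each library, with Cd177 as black diamonds. The 9 other genes lie above 0 together in model replicate 4 and below 0 together in model replicate 2 and high dose replicate 1, and Cd177 is lowest in high dose replicate 3.

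The pattern of Csf3r over the 8 libraries was matched most closely by Serpinb10, Stfa2l1, Prtn3, Siglece, Ifitm6, Skint3, Soat2, Pram1, Apol10b and Trem3, leaving out the 10 genes themselves, predicted genes and immunoglobulin segments. Their Pearson r to Csf3r was 0.98 to 0.99, which largely reflects the split between the groups, and 0.83 to 0.94 after the group means were removed. Among them Stfa2l1 is a stefin, Prtn3 a protease of neutrophil granules and Siglece a sialic acid-binding receptor. Cxcr2 ranked 7 and Fpr2 35 in likeness to Csf3r among tested genes, whereas Il1r2 ranked 370 and Fpr1 391. The genes most like Cd177 by the same measure were Porcn, Ghrl, Ccl21b, Nagk, Prelp, Sncg, Anapc2, Nhsl1, Ninl and Cenpb, with r of 0.93 to 0.97, and 0.81 to 0.90 after the group means were removed. Ghrl, which encodes ghrelin, was at 0.707 FPKM in model and 3.96 in high dose on average.

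The genes that act with these receptors were read from 12 lists, holding 113 names besides the 10, of which 97 were tested. Of these, 22 (22.7%) were lower and 8 (8.25%) higher in high dose in limma (adjusted p under 0.05), and 67 did not pass, against 4.27% and 5.86% of all genes tested. Their median log2 difference was -0.44, and that of all genes tested was 0.04. The lists were written with earlier results of these data known, so these shares may reflect that choice and are a description. Without model replicate 2, 38 genes were lower and 12 higher. Without model replicate 1, 3 or 4, 13, 11 and 13 were lower and 5, 4 and 6 higher, and without high dose replicate 1, 2, 3 or 4, 12, 17, 11 and 10 were lower and 5, 8, 6 and 5 higher.

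Of 4 tested genes listed as ligands of Cxcr2, 2 rose, 1 fell and 1 did not pass. Cxcl15, or lungkine, a chemokine of mouse lung epithelium, had 259.6, 454, 273 and 214 FPKM in model and 746, 613, 762 and 689 in high dose. All high dose libraries lay above all model libraries, and Cxcl15 rose (log2 difference 1.28 ± 0.21, adjusted p = 0.00923, limma). Whether Cxcl15 acts on Cxcr2 was not tested here. Cxcl1, a neutrophil chemokine made by many tissue cells, rose from 1.20 ± 0.192 to 2.72 ± 0.906 FPKM (0.73 ± 0.17, adjusted p = 0.0281), a call lost in 5 of the 8 fits without 1 library, with adjusted p up to 0.0661. Ppbp, a chemokine precursor stored in platelets, fell from 53.3 ± 13.3 to 23.9 ± 11.2 FPKM (-1.17 ± 0.29, adjusted p = 0.0398), a call lost in 6 of 8. Cxcl2 did not pass (1.58 ± 0.765 and 0.946 ± 0.330 FPKM, adjusted p = 0.321). Cxcl3 and Cxcl5 were too low to be tested, at means of 0.211 and 0.533 FPKM for Cxcl3 and 0.589 and 0.637 for Cxcl5.

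**Figure D4:**
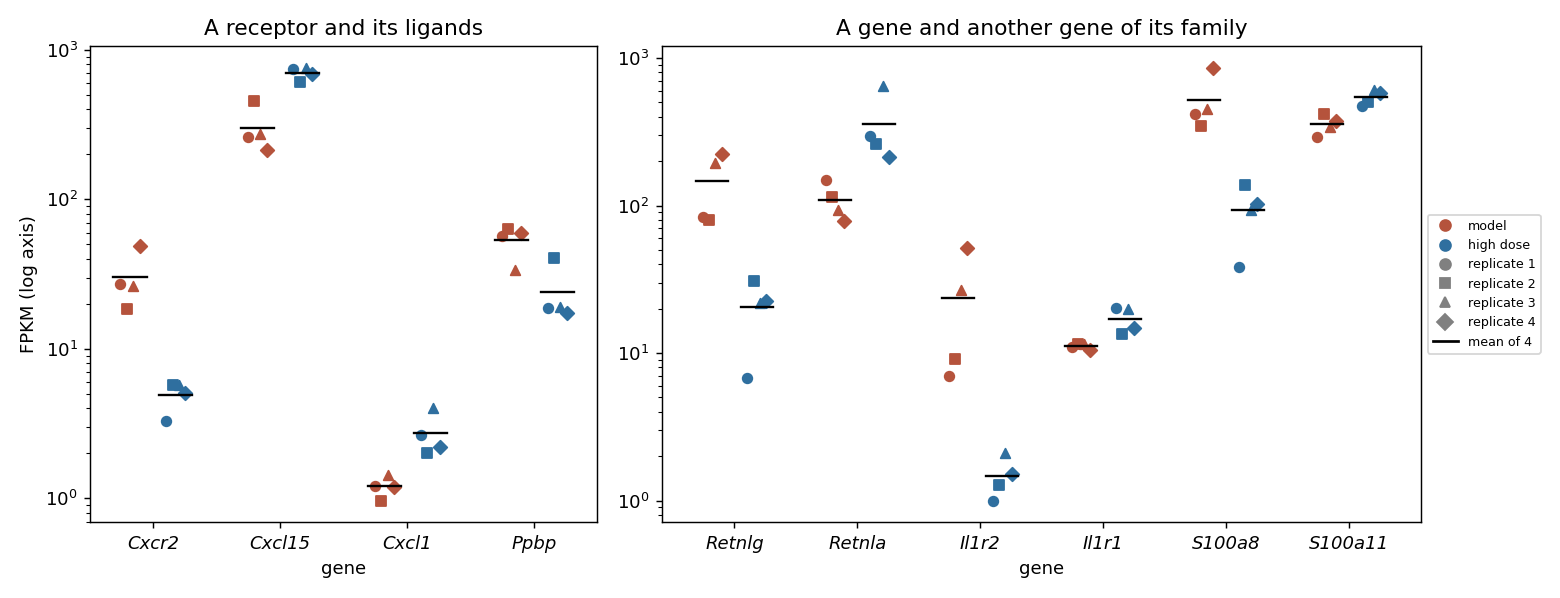
FPKM in each library on log axes, with bars at the mean of 4. The left panel holds Cxcr2 with 3 genes listed as its ligands. The right panel holds Retnlg with Retnla, Il1r2 with Il1r1 and S100a8 with S100a11. Cxcr2, Retnlg, Il1r2 and S100a8 are lower in all high dose libraries, where Cxcl15, Cxcl1, Retnla, Il1r1 and S100a11 are higher in all of them.

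The ligand of Csf3r, Csf3, was barely present, at means of 0.0339 FPKM in model and 0.0723 in high dose. Of 6 tested colony-stimulating factors and their other receptors 0 passed in either direction (limma), and 1 was lower at an unadjusted p under 0.05. Among all 14418 genes tested, 3688 had an unadjusted p under 0.05 in either direction (limma). The most abundant were Csf1r, the receptor of macrophages, at 61.5 ± 19.2 and 40.2 ± 4.22 FPKM (adjusted p = 0.154), and Csf2ra at 41.0 ± 11.1 and 32.2 ± 6.60 (adjusted p = 0.407). Of 7 tested factors of granulocyte differentiation 2 fell and 5 did not pass. Mxd1, a repressor of Myc targets in mature granulocytes, fell from 34.3 ± 11.8 to 11.2 ± 1.19 FPKM (-1.48 ± 0.22, adjusted p = 0.00668). Spi1, which encodes PU.1, fell from 73.3 ± 22.5 to 39.9 ± 4.16 FPKM (-0.81 ± 0.22, adjusted p = 0.0475), a call lost in 7 of the 8 fits without 1 library.

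Of 8 tested receptors of other neutrophil attractants 3 fell and 5 did not pass, with 6 lower without model replicate 2 and 1 or 2 without any 1 of the other libraries. Ccr1, a receptor of CC chemokines, fell from 18.1 ± 6.88 to 6.52 ± 1.33 FPKM (-1.29 ± 0.24, adjusted p = 0.0145). C5ar1, the receptor of complement fragment C5a, fell by 1.03 ± 0.25 (adjusted p = 0.0324) and Ltb4r1, a leukotriene receptor, by 0.90 ± 0.24 (adjusted p = 0.0466), and these calls were lost in 5 and 7 of the 8 fits without 1 library. The other formyl peptide receptor genes were nearly silent: 3 of 5 were listed at 0 in every library, and the highest value of the others was 0.0433 FPKM. Cxcr1, the neighbour and paralog of Cxcr2, had 1.90 ± 0.738 and 0.807 ± 0.442 FPKM and did not pass (adjusted p = 0.121). Among ligands of the formyl peptide receptors Anxa1, which encodes annexin A1, rose from 151 ± 13.6 to 239 ± 27.8 FPKM (0.66 ± 0.11, adjusted p = 0.00968), and the other 2 tested did not pass.

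Of 16 tested genes of signalling and adhesion below these receptors 5 fell and 11 did not pass. Without model replicate 2 12 were lower, and without any 1 of the other libraries 1 to 4 were. Fgr, a Src family kinase of myeloid cells, fell from 28.7 ± 9.01 to 11.4 ± 1.53 FPKM (-1.21 ± 0.23, adjusted p = 0.015). The integrin chains Itgam and Itgal fell by 1.24 ± 0.25 (adjusted p = 0.0187) and 1.18 ± 0.24 (adjusted p = 0.0192), and the GTPase Rac2 by 0.88 ± 0.20 (adjusted p = 0.0267). Leaving out 1 library ended the calls of Itgam in 2, of Itgal in 4 and of Rac2 in 7 of 8 fits. Gnai2, the G protein subunit that these receptors share with many cell types, had 327 ± 36.6 and 302 ± 13.8 FPKM (adjusted p = 0.556).

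Of 10 tested TREM family genes and genes that act with them, such as adaptors, 4 fell and 6 did not pass. Without model replicate 2 7 were lower, and without any 1 of the other libraries 2 to 4 were. Trem3, which lies next to Trem1, had 9.32, 5.88, 12.2 and 17.7 FPKM in model and 1.16, 2.18, 1.85 and 1.52 in high dose, and fell (-2.12 ± 0.28, adjusted p = 0.00458). Treml4 fell by 1.65 ± 0.24 (adjusted p = 0.00605), Treml2 by 0.74 ± 0.17 (adjusted p = 0.0249) and the kinase Syk by 0.60 ± 0.14 (adjusted p = 0.0309), the latter pair losing the call in 5 and 7 of the 8 fits without 1 library. Tyrobp, the adaptor that carries the Trem1 signal, had 187 ± 66.5 and 94.3 ± 25.3 FPKM and did not pass (adjusted p = 0.0807).

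Interleukin 1 genes were divided. Of 15 tested 3 rose, 2 fell and 10 did not pass, with 2 or 3 higher and 1 to 4 lower over the 8 fits without 1 library, the 4 without model replicate 2. Il1b, the cytokine that Il1r2 captures, fell from 73.6 ± 15.6 to 25.0 ± 11.5 FPKM (-1.64 ± 0.37, adjusted p = 0.0292), a call lost in 5 of the 8 fits without 1 library. Il18rap, the accessory chain of the interleukin 18 receptor, fell by 1.61 ± 0.30 (adjusted p = 0.0143). Il33, an alarmin of tissue cells, rose from 26.0 ± 2.37 to 57.5 ± 18.4 FPKM (1.07 ± 0.20, adjusted p = 0.0142), and Il1rl2, the interleukin 36 receptor, rose by 0.62 ± 0.11 (adjusted p = 0.0108). Il1r1, the signalling receptor and the neighbour of Il1r2, is given for that position: it rose from 11.1 ± 0.510 to 17.1 ± 3.57 FPKM (0.56 ± 0.14, adjusted p = 0.0337), a call lost in 6 of 8.

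The other S100 genes included none that fell. Of 10 tested S100 genes besides the pair 1 rose and 9 did not pass, and at an unadjusted p under 0.05 4 were higher and 0 lower. Without model replicate 2 4 passed as higher. Among all 14418 genes tested, 3688 had an unadjusted p under 0.05 in either direction (limma). S100a11, a broadly expressed calcium-binding protein, rose from 355 ± 54.2 to 541 ± 62.8 FPKM (0.61 ± 0.14, adjusted p = 0.0248), a call lost in 4 of the 8 fits without 1 library. Of the 6 receptors and coreceptors of the pair 0 passed (limma), and 1 was higher at an unadjusted p under 0.05. Ager had 658 ± 135 and 965 ± 172 FPKM (adjusted p = 0.0854), and Tlr4, Cd14, Ly96, Cd36 and Cd68 had adjusted p of 0.377 to 0.990. Retnla, the neighbour of Retnlg and a product of alternative activation, had 149, 114, 93.1 and 78.7 FPKM in model and 297, 260.2, 648 and 214 in high dose. It rose (1.60 ± 0.34, adjusted p = 0.0234), so these neighbours lay on opposite sides, and the call was lost in 3 of the 8 fits without 1 library. Retn, or resistin, did not pass (7.71 ± 4.68 and 5.78 ± 5.15 FPKM, adjusted p = 0.64).

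In the family of Cd177, the Ly6 and uPAR genes, 5 of 10 tested fell and 5 did not pass, with 2 lower without model replicate 3, 3 without high dose replicate 1 or 2, and 4 to 6 without any 1 of the others. Ly6g, the surface antigen by which mouse neutrophils are commonly sorted, had 3.30, 1.93, 5.82 and 8.85 FPKM in model and 0.397, 0.801, 0.334 and 0.867 in high dose, and fell (-1.77 ± 0.34, adjusted p = 0.016). That call was lost without model replicate 3 (adjusted p = 0.0509). Ly6i fell by 2.37 ± 0.36 (adjusted p = 0.00826), Ly6c2 by 1.90 ± 0.31 (adjusted p = 0.0094) and Ly6a by 1.13 ± 0.23 (adjusted p = 0.0198, lost in 3 of 8), and reads of these paralogs may have been shared. Pecam1, an adhesion molecule known to bind human CD177, was at 219 ± 22.9 and 214 ± 21.2 FPKM (adjusted p = 0.887). Prtn3, the protease that human CD177 presents on the cell surface, fell from 5.77 ± 1.72 to 1.39 ± 0.342 FPKM (-1.47 ± 0.20, adjusted p = 0.00502).

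Markers of several blood cells were lower together with the 9 genes, and their part in the result was not tested. The marker lists were written with earlier results of these data known. Among all genes tested, 4.27% were lower and 5.86% higher (limma, adjusted p under 0.05). Of 19 other mature neutrophil markers 13 fell and 6 did not pass, with 11 to 14 lower over the 8 fits without 1 library and a summed level of 617 to 1393 FPKM in model and 462 to 540.2 in high dose. As higher 0 passed, and 0 or 1 did without 1 library. Lrg1 was higher in every high dose library (74.2 ± 29.3 and 129 ± 14.2 FPKM) and passed as higher without model replicate 4 (adjusted p = 0.0367, limma). G0s2 also had a higher mean (32.0 ± 3.01 and 58.4 ± 29.0 FPKM) and passed as higher without high dose replicate 1 (adjusted p = 0.0421). Of 12 tested granule proteins and stefins 9 fell, 1 rose and 2 did not pass, with 5 lower without model replicate 1 or 3 and 6 to 9 without any 1 of the others. Their summed level leaned the other way, at 278 to 378 FPKM in model and 370.2 to 559 in high dose, ranges that overlap. The member that rose was Lcn2, an iron-trapping protein also made by epithelium, from 140.1 ± 29.2 to 363 ± 121 FPKM (1.33 ± 0.25, adjusted p = 0.0147), and Ltf, which encodes lactoferrin, was also higher but did not pass (18.9 ± 11.4 and 73.4 ± 52.8 FPKM, adjusted p = 0.0729). Lcn2 and Ltf alone of that list had a higher mean in high dose, so the higher sum came from them. Both were named after their values were seen. Of 9 monocyte markers 4 fell and 5 did not pass, with a summed level of 502 to 1273 FPKM in model and 396 to 574 in high dose, and 3 to 6 were lower without 1 library, the 6 without model replicate 2. Of 8 natural killer cell markers 7 fell and 1 did not pass, with sums of 129 to 687 and 31.9 to 50.5 FPKM, and 6 to 8 were lower without 1 library. S100a8 and S100a9 are also made by monocytes.

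Few or no markers of the other blood, macrophage and vessel lists passed as lower. Among all 14418 genes tested, 4.27% passed as lower and 5.86% as higher (limma, adjusted p under 0.05). An unadjusted p under 0.05 was found in 3688 of them, in either direction. Of 8 tested T cell markers 0 passed (limma) and 2 were lower at an unadjusted p under 0.05, with summed levels of 45.9 to 69.2 FPKM in model and 45.2 to 59.7 in high dose. Of 7 endothelial markers 0 passed (limma) and 2 were higher at an unadjusted p under 0.05, at 750 to 977 and 758 to 1049.7 FPKM. Of 9 alveolar macrophage markers 1 rose, 1 fell and 7 did not pass, and sums were 379 to 1160 and 415 to 514 FPKM. The 10 markers of eosinophils, basophils and mast cells were all below the filter, with no library above 2.24 FPKM. Of 8 platelet markers 1 fell and 7 did not pass, and 6 were lower at an unadjusted p under 0.05, with a median log2 difference of -0.62 and sums of 50.1 to 115 and 41.9 to 74.3 FPKM. Without high dose replicate 2 3 of them passed as lower, and without any 1 of the other libraries 0 did. Of 5 red blood cell markers 0 passed by adjusted or unadjusted p (limma), at 4661 to 12822 and 7232 to 30399.7 FPKM. Of 7 B and plasma cell markers 2 rose and 5 did not pass, and 5 were higher at an unadjusted p under 0.05. Without 1 library 0 to 2 were higher, with 0 without model replicate 1, 3 or 4 or high dose replicate 1 or 2 and 1 without high dose replicate 4.

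Beside Cd177, some markers of transitional, basal and alveolar type 2 epithelium rose, and their part in its level was not tested. Among all 14418 genes tested, 5.86% passed as higher and 4.27% as lower (limma), and 3688 had an unadjusted p under 0.05 in either direction. Of 11 tested markers of transitional and basal epithelium 6 rose and 5 did not pass, with summed levels of 402 to 664 FPKM in model and 633 to 842 in high dose. Of 8 alveolar type 2 markers 4 rose and 4 did not pass, at 10821 to 16079.9 and 14623 to 21106 FPKM, with 6 higher without model replicate 2, 2 without high dose replicate 3 or 4, and 3 or 4 without any 1 of the others. Of 10 tested airway secretory markers 1 rose and 9 did not pass, with a median log2 difference of -0.38 and sums of 18086 to 47544 and 10425 to 26006 FPKM. Of 8 fibroblast markers 0 passed (limma), with 4 higher and 1 lower at an unadjusted p under 0.05, at sums of 237 to 555 and 512 to 687 FPKM, and 3 passed as higher without model replicate 4.

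Leaving out 1 library moved the log2 differences of the 10 genes without turning any. Without model replicate 4, the highest in 9 genes, Il1r2 went from -2.92 to -2.42, Cxcr2 went from -2.33 to -2.08 and S100a9 from -2.67 to -2.38. Over the 8 such fits Fpr1 lay between -1.18 and -0.81 and Cd177 between 1.35 and 2.05. Fpr1 passed the adjusted threshold in 10 of 18 alternative fits and Cd177 in 8, Il1r2 missed it without model replicate 3, and the other 7 genes passed in each fit that tested them, which for Trem1 leaves out the one with a minimum of 5 FPKM. The misses of Cd177 included median centring (adjusted p = 0.0506), no filter on low values (adjusted p = 0.077) and 7 of the 8 fits without 1 library. The 10 genes were selected with this contrast known, so these passes and misses are a description and test nothing.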

How the data were processed

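RNA sequencing of mouse lung gave 1 table of gene values for 8 libraries, 4 titled model and 4 titled high dose, made with a SMARTER mRNA-Seq kit per the labels' protocols. The authors deposited FPKM values, with no unit in the header; the unit was inferred from decimals and unequal library sums. Per the submitters' processing notes the genome was mm39, and the aligner, annotation and strand setting are not given in the sources used here. Read counts were not recovered, so depth is known only as an approximate ratio between libraries, precision rests on the spread of 4 libraries, and no count model was used.

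Rows that share a gene name were added up (1734 names had several), and of 39290 names the 14418 averaging 1 FPKM or more were tested. The model, limma 3.58.1 (R 4.3.3) on log2(FPKM + 1), had the group as its single term with trend and robust settings, and its two-sided p-values were adjusted by the Benjamini-Hochberg method at a threshold of 0.05. Each SD is of 4 FPKM values and each SE belongs to a fitted log2 difference. The fit was run on simulated data, with values drawn independently for each gene from normal distributions. Such data hold no off-lying libraries and no genes that vary together, so the run cannot speak for either. Plots were made in Python 3.11.15 (matplotlib 3.10.9).

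The 10 genes and all lists were chosen with earlier results of these data known. Besides the 10, the rule named all listed ligands of Cxcr2 and receptors of the S100 pair. Each other list gave up to 4 genes past the threshold with the smallest p, or the 2 most abundant where none passed. The 10 genes most like Csf3r and Cd177 were also named by the rule. Csf3, Cxcr1, Gnai2, Tyrobp, Il1r1, Retn, Pecam1, Prtn3, Lcn2, Ltf, Lrg1, G0s2 and Sftpc lie outside it and were added for their role, position or direction after their values were seen. Alternatives changed the scaling between libraries, the filter, the pseudocount, the variance model, the summing of rows and the replicate block, and left out each library in turn. Promoter windows came from RefSeq, matched by symbol for all 10 genes.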

Additional observations from a re-analysis of the deposited data

How the results depend on the processing

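Among all 14418 genes 845 were higher and 616 lower in high dose. Without a filter on low values the higher count was 518, and with the replicate block it was 486. Leaving out 1 library gave 364 to 1176 higher and 336 to 969 lower. Of the genes that act with the 10 described, 8 were higher and 22 lower, and leaving out 1 library gave 4 to 12 and 10 to 38. Without the filter 12 were lower. Over all 18 alternatives the median log2 difference of the 10 genes and the sign of each gene held. The difference of Trem1 went from -1.55 to -2.01 and -2.08 with pseudocounts of 0.1 and 0.01. With its rows not summed, it was -1.29 and -1.22. The replicate block gave 469 lower genes, with 7 higher and 20 lower genes that act with the 10, and Cd177 missed the threshold in it (adjusted p = 0.0552). Libraries of the same number correlated, after the group means were removed, at 0.15, 0.28, -0.07 and -0.09, so the numbers were not taken to pair them. The counts of calls thus change with single libraries, low genes are read less firmly since FPKM gives no counts, and Trem1 could not be fitted at a minimum of 5 FPKM.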
